A study of Mus musculus with 8 samples.

Results

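The BCL2 family of apoptosis regulators was examined in bulk RNA-seq of spleen B cells from transgenic mice that had reached early removal criteria (ERC). Its 10 members were chosen by symbol, namely the anti-apoptotic genes Bcl2, Bcl2l1 and Mcl1, the effectors Bax and Bak1, and the BH3-only genes Bcl2l11, Bbc3, Pmaip1, Bid and Bad. All 10 were found among the 24902 symbols of the count matrix, had a value in all 8 libraries and passed the filter on low counts, which left 13173 genes for testing. The study asked how overexpression of the arginine methyltransferase PRMT5 shapes CLL-like disease in mice, alone or together with the TCL1 oncogene.

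The libraries came from 4 Eµ-PRMT5 mice (transgene Eµ-hPRMT5), 3 Eµ-PRMT5/TCL1 mice (Eµ-hPRMT5/hTCL1) and 1 Eµ-TCL1 mouse (Eµ-hTCL1), each with C57BL/6N given as its strain. The labels name no treatment, and the ages of these 8 mice were not given in the sources used here, so age cannot be told apart from genotype. Males and females were mixed by the study's methods. The Eµ-PRMT5 transgene places the coding region of human PRMT5 under a mouse VH promoter and the IgH µ enhancer, so expression is directed to the B-cell lineage, and the carriers were heterozygous. The double transgenic mice came from a cross of Eµ-PRMT5 with homozygous Eµ-TCL1 mice kept on C57BL/6J. All 3 groups carry an oncogenic transgene and all mice were diseased, and WT mice were not analysed here. The title of Eµ-PRMT5 mouse 2 holds an identifier that the methods give to a founder of the line. Pan-B cells were isolated from spleen suspensions. In mouse order, the libraries held 5484833, 6471716, 3987989 and 10252426 counts for Eµ-PRMT5, 6232700, 7290268 and 6686631 for Eµ-PRMT5/TCL1, and 3356297 for Eµ-TCL1. Eµ-PRMT5 mouse 1 had a value for 16379 symbols, against 20411 to 21475 in the other 7 libraries, and stands apart in that respect.

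BCL2 family proteins set the threshold at which a cell enters the mitochondrial, or intrinsic, pathway of apoptosis. Anti-apoptotic members hold the effectors BAX and BAK in check, and BH3-only proteins, which are induced or released by stress, loss of survival signals or DNA damage, bind the anti-apoptotic members or activate the effectors directly. Once active, the effectors permeabilize the outer mitochondrial membrane, cytochrome c is released and caspases are activated. CLL cells characteristically depend on BCL2 for survival, and BCL2 and MCL1 are targets of BH3-mimetic drugs in B-cell malignancies.

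Markers of B cells were present in every library. The 7 B-cell markers examined (Cd79a, Cd79b, Ms4a1, Pax5, Cd22, Blk and Cd5) had a value in all 8 libraries, and none was at 0. Their summed level was 4645, 2667, 5284 and 1790 CPM (counts scaled to library size, with TMM factors) in Eµ-PRMT5 mice 1 to 4, 2716, 3981 and 6821 CPM in Eµ-PRMT5/TCL1 mice 1 to 3, and 3613 CPM in the Eµ-TCL1 mouse. Eµ-PRMT5 mouse 4 thus had the lowest sum, and within its genotype it was the lowest for 6 of the 7 markers. The same mouse had the highest sum of the 7 proliferation markers, 3632 CPM, against 380 to 1772 CPM in the other mice.

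Markers of other cells were also detected. The 12 markers of neutrophils and their precursors had values in all libraries and none was at 0. They summed to 2775, 2242, 434 and 5537 CPM in Eµ-PRMT5 mice 1 to 4, 9310, 5186 and 671 CPM in Eµ-PRMT5/TCL1 mice 1 to 3, and 622 CPM in the Eµ-TCL1 mouse. The lowest sums were thus those of Eµ-PRMT5 mouse 3, the Eµ-TCL1 mouse and Eµ-PRMT5/TCL1 mouse 3. The most abundant gene was Mpo in Eµ-PRMT5 mouse 3 (161 CPM) and Eµ-PRMT5/TCL1 mouse 1 (3498 CPM) and Ngp in the others (194 to 1930 CPM). T-cell markers summed to between 445 and 1245 CPM, led by Cd2 or Lck. Cd4 was at 0 or without a value in Eµ-PRMT5 mouse 1, as was Cd8a in Eµ-PRMT5/TCL1 mouse 3. The highest sum, in Eµ-PRMT5/TCL1 mouse 2, came mostly from Lck (667 CPM) and Cd2 (524 CPM). That mouse had 6.43 CPM of Cd3e and 2.43 CPM of Cd3d. Cd3e and Cd3d were highest in Eµ-PRMT5 mouse 3 (55.2 and 44.7 CPM) and Cd3g in mouse 4 (95.1 CPM), so the sum did not follow these genes. Macrophage markers summed to between 143 and 909 CPM, and to between 143 and 736 CPM over the 4 genes with a value in all libraries, where Eµ-PRMT5/TCL1 mouse 1 was highest. Their leading gene was Cd68, C1qb or Csf1r, and C1qa, C1qb, C1qc and Cd5l were at 0 or without a value in Eµ-PRMT5 mouse 1, as was C1qa in mouse 2. Plasma-cell markers, led by Jchain or Xbp1, summed to 5604, 2057, 1450 and 587 CPM in Eµ-PRMT5 mice 1 to 4, 521, 406 and 2697 CPM in Eµ-PRMT5/TCL1 mice 1 to 3, and 1887 CPM in the Eµ-TCL1 mouse. Eµ-PRMT5 mouse 1 was the highest of its genotype for 4 of the 4 plasma-cell markers. Erythroid markers, led by Hba-a1, summed to between 16.0 and 320 CPM. Alas2 was at 0 or without a value in Eµ-PRMT5 mouse 3 and in that of Eµ-TCL1. Markers of NK and cytotoxic cells summed to 389 CPM in Eµ-PRMT5 mouse 3 and to between 25.2 and 70.5 CPM elsewhere, led by Nkg7 in 5 of the 8 mice, and in 4 mice 1 or more of Klrb1c, Gzma and Gzmb was at 0 or without a value. In bulk RNA, fewer cells of a type and less RNA per cell cannot be told apart.

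**Figure D1:**
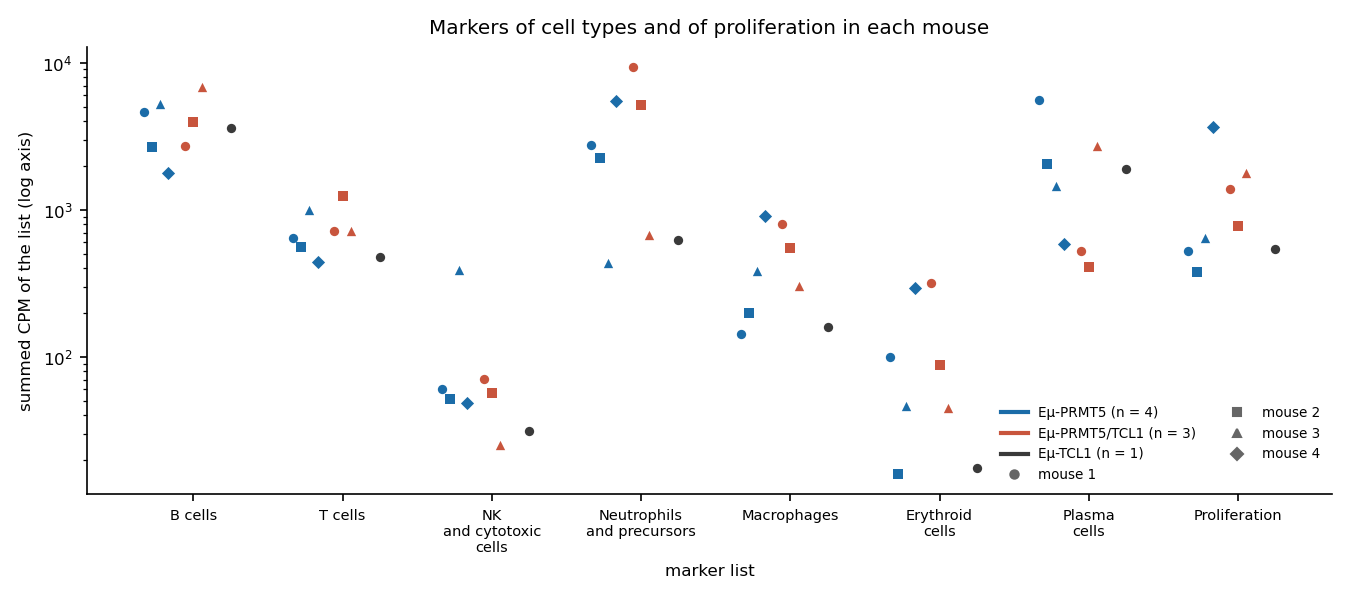
Summed TMM-normalized CPM (log axis) of 8 marker lists in each mouse, with colour for genotype and symbol for mouse number. The neutrophil list spans 434 to 9310 CPM and is lowest in Eµ-PRMT5 mouse 3, the Eµ-TCL1 mouse and Eµ-PRMT5/TCL1 mouse 3.

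No member was called in any comparison of genotypes, and with edgeR 0% of the 13173 tested genes were called. The members differed in mean level, from 1.26 (Bak1) to 104 (Bax) CPM per kilobase of exon, and in how far they varied between mice of 1 genotype. Bcl2l11, Bbc3 and Pmaip1 varied most. Bid, Bad and Bax varied least. Bcl2l1 was the only member for which the Eµ-TCL1 mouse lay above all 7 other mice, as it did for 21.3% of tested genes.

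**Figure D2:**
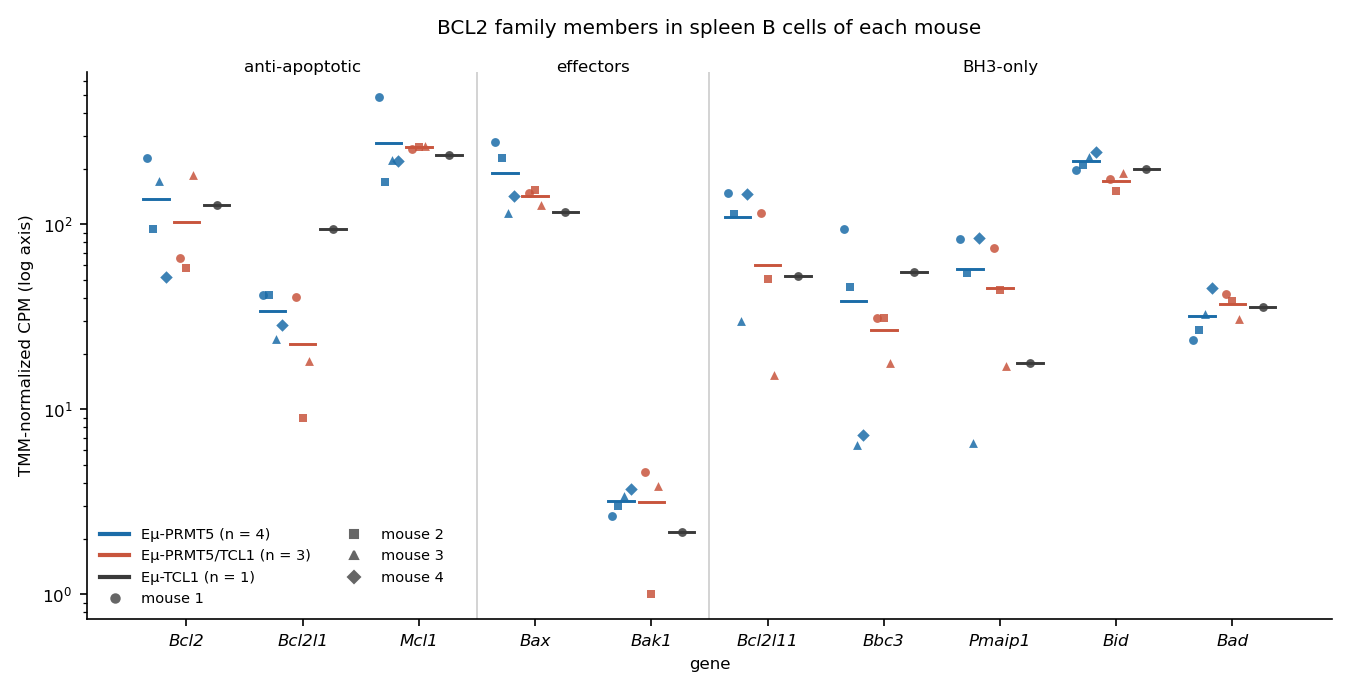
TMM-normalized CPM (log axis) of the 10 members in each mouse, grouped by role, with genotype as colour, mouse number as symbol and the group mean as a bar. Bbc3 spans 6.38 to 94.6 CPM among the Eµ-PRMT5 mice, whereas Bid spans 197 to 246 CPM.

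Among the anti-apoptotic genes, Bcl2 encodes the protein for which the family is named. The gene lies on chromosome 1 of GRCm38 from 106538178 to 106714274 on the minus strand, and 558 of its exon bases are shared with D630008O14Rik on the other strand. Bcl2 measured 229, 94.99, 173 and 52.2 CPM in Eµ-PRMT5 mice 1 to 4, 65.6, 58.3 and 186 CPM in Eµ-PRMT5/TCL1 mice 1 to 3, and 127 CPM in the Eµ-TCL1 mouse. It was high in Eµ-PRMT5 mice 1 and 3 and in Eµ-PRMT5/TCL1 mouse 3, low in Eµ-PRMT5 mouse 4 and in Eµ-PRMT5/TCL1 mice 1 and 2, and the groups overlapped. The high mice also had the highest B-cell marker sums (4645, 5284 and 6821 CPM), and Eµ-PRMT5 mouse 4 had the lowest (1790 CPM). Eµ-PRMT5/TCL1 mouse 2, low for Bcl2, came next to the highest sums (3981 CPM). The part of the cell make-up in the level of Bcl2 was not tested. The means were 137 ± 78.8 CPM (SD, n = 4) for Eµ-PRMT5 and 103 ± 71.8 CPM (SD, n = 3) for Eµ-PRMT5/TCL1, a log2 fold change of -0.41 (95% interval -1.58 to 0.77). It was -0.01 without Eµ-PRMT5 mouse 1 and -1.15 without Eµ-PRMT5/TCL1 mouse 3.

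Bcl2l1 encodes BCL-XL, which guards the mitochondrial membrane in many cell types. It lies on chromosome 2 from 152780668 to 152831728 on the minus strand, with no exon of another gene over its own. Bcl2l1 measured 41.6, 41.5, 23.9 and 28.7 CPM in Eµ-PRMT5 mice 1 to 4, 40.3, 9.01 and 18.3 CPM in Eµ-PRMT5/TCL1 mice 1 to 3, and 94.4 CPM in the Eµ-TCL1 mouse. The Eµ-TCL1 mouse was above all 7 others, as it was for 21.3% of all tested genes, and it was below all others for 0 of the 10 members, against 14.2% of tested genes. Its value rests on 349 counts, with a Poisson interval of 84.7 to 105 CPM that covers counting error only. Between the replicated groups the values overlapped, and Eµ-PRMT5/TCL1 mouse 2 was lowest.

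The log2 fold change of Bcl2l1 against the Eµ-TCL1 mouse was -1.47 in Eµ-PRMT5 mice (standard error 0.64, adjusted p = 0.709 by edgeR's quasi-likelihood test). It was -2.07 in Eµ-PRMT5/TCL1 mice (standard error 0.67, adjusted p = 0.778 by the same test), and leaving out 1 mouse moved it to -2.79 (without Eµ-PRMT5/TCL1 mouse 1) or -1.69 (without mouse 2). All 4 Eµ-PRMT5 and all 3 Eµ-PRMT5/TCL1 mice were below the Eµ-TCL1 mouse, and both comparisons share that mouse. The Eµ-TCL1 mouse also stood apart in the plasma-cell marker Prdm1, at 210 CPM against 29.5 to 95.2 CPM in the others. Prdm1 was named here after its values were seen, and this mouse was above all others for 21.3% of tested genes. For the other plasma-cell markers it was not highest, with 156 CPM of Jchain, 41.4 CPM of Sdc1 and 1480 CPM of Xbp1. Eµ-PRMT5 mouse 1 had 3057, 203 and 2249 CPM of these. The part of the cell make-up in the level of Bcl2l1 was not tested. For Bcl2l1, the log2 fold change of Eµ-PRMT5/TCL1 over Eµ-PRMT5 mice was -0.59 (95% interval -1.66 to 0.47), and it was -1.31 without Eµ-PRMT5/TCL1 mouse 1 and -0.21 without mouse 2 of that genotype.

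Mcl1 encodes a short-lived anti-apoptotic protein that normal B cells require. Its position is chromosome 3 from 95658788 to 95663176 on the plus strand. Mcl1 measured 490, 170, 223 and 221 CPM in Eµ-PRMT5 mice 1 to 4, 257, 263 and 266 CPM in Eµ-PRMT5/TCL1 mice 1 to 3, and 238 CPM in the Eµ-TCL1 mouse. The Eµ-PRMT5/TCL1 mice lay close together, at 262 ± 4.63 CPM (SD, n = 3), inside the range of the Eµ-PRMT5 mice, whose spread came mostly from mouse 1. That mouse also had the highest sum of plasma-cell markers (5604 CPM, against 587 to 2057 CPM in the others of its genotype), and the part of such cells in its levels of Mcl1 and Bbc3 was not tested. The log2 fold change between these groups was -0.07 (95% interval -0.94 to 0.79). Without Eµ-PRMT5 mouse 1, which had the fewest symbols with a value, it was 0.37. The 3 Eµ-PRMT5/TCL1 mice then all exceeded the 3 remaining Eµ-PRMT5 mice, as they did for 2.41% of tested genes.

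Of the effectors, Bax encodes the mostly cytosolic pore-forming protein. The locus is on chromosome 7 from 45461697 to 45466898 on the minus strand and overlaps Gm45808 on the same strand, where reads of the pair cannot be told apart. Bax measured 278, 228, 116 and 142 CPM in Eµ-PRMT5 mice 1 to 4, 147, 153 and 127 CPM in Eµ-PRMT5/TCL1 mice 1 to 3, and 116 CPM in the Eµ-TCL1 mouse. Eµ-PRMT5 mice 1 and 2 were above all other mice, mouse 3 was as low as the Eµ-TCL1 mouse, and the groups overlapped. Its log2 fold change was -0.42 (95% interval -1.22 to 0.38) of Eµ-PRMT5/TCL1 over Eµ-PRMT5 mice and 0.72 (95% interval -0.51 to 1.94) of Eµ-PRMT5 mice over the Eµ-TCL1 mouse.

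Bak1 encodes BAK, the effector that resides in the outer mitochondrial membrane. Its locus is on chromosome 17 from 27019810 to 27029009 on the minus strand, and 614 of its exon bases are shared with Ggnbp1 on the other strand. Bak1 was counted between 7 and 32 times per library. The values were 2.64 to 3.69 CPM in Eµ-PRMT5 mice, 1.00 to 4.59 CPM in Eµ-PRMT5/TCL1 mice, with 2.16 CPM for Eµ-TCL1. At 7 counts, the Poisson interval of the lowest mouse, Eµ-PRMT5/TCL1 mouse 2, ran from 0.402 to 2.06 CPM. That interval lies below those of the other 2 mice of its genotype (3.05 to 6.63 and 2.49 to 5.67 CPM), but covers counting error of independent reads only, and the replicated groups overlapped.

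Promoters of the variable genes Bcl2l11 and Bbc3 and of the steady gene Bid are shown for comparison, each from 250 bases before to 50 bases after a transcription start of RefSeq (GRCm38.p6). A window was matched for 9 members and was not sought for Pmaip1. Where a gene had several, the one nearest the 5′ end of the GENCODE gene was taken. The transcription start lay 1190 bases from that end for Bbc3, 29 for Bid and 0 for Bcl2l11, so the Bbc3 window lies within the annotated gene. The windows are chr2:128125788-128126087 on the plus strand for Bcl2l11, chr7:16309333-16309632 on the plus strand for Bbc3 and chr6:120916775-120917074 on the minus strand for Bid. Capitals mark matches, on either strand, to GTAAACA (a core bound by FOXO factors), TTCNNNGAA (STAT), GGGCGG (SP1 and related factors), CCAAT (the CCAAT box), TATAAA (the TATA box), CACGTG (an E-box) or the p53 half-site.
Bcl2l11: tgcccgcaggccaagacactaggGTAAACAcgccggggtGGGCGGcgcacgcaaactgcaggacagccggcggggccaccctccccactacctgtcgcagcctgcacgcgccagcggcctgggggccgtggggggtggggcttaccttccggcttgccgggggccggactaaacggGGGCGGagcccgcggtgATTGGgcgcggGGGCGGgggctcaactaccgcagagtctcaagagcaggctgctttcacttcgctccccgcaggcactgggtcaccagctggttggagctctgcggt
Bbc3: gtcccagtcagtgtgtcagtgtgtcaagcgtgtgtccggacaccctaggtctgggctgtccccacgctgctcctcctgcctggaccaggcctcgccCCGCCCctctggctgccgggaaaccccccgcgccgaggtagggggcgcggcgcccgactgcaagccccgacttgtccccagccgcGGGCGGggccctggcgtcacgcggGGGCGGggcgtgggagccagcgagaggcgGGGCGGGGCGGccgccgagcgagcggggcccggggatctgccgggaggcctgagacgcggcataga
Bid: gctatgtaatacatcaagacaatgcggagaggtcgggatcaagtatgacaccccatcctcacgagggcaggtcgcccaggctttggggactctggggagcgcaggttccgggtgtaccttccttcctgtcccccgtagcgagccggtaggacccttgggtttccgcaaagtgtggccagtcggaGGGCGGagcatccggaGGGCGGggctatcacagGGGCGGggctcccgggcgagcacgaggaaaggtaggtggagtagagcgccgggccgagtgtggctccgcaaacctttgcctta
Bcl2l11 held 1 GTAAACA, 3 GGGCGG and 1 CCAAT, the last as its complement. Bbc3 held 5 GGGCGG, of which adjoining matches overlap, and Bid held 3. GTAAACA was found in 3.65% of all 32851 windows of 300 bases, TTCNNNGAA in 8.30%, GGGCGG in 35.7%, CCAAT in 37.4%, TATAAA in 13.6%, CACGTG in 7.15% and the p53 half-site in 8.36%. Among the 9 members, GTAAACA occurred only in Bcl2l11, and CACGTG and the p53 half-site only in Bax. These matches describe the letters of the windows and were not related to the expression values by any test.

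The BH3-only gene Bcl2l11 encodes BIM, a mediator of lymphocyte death upon loss of survival signals and a transcriptional target of FOXO factors. It lies on chromosome 2 from 128126038 to 128162547 on the plus strand. Bcl2l11 measured 148, 114, 29.9 and 146 CPM in Eµ-PRMT5 mice 1 to 4, 115, 50.6 and 15.4 CPM in Eµ-PRMT5/TCL1 mice 1 to 3, and 52.5 CPM in the Eµ-TCL1 mouse. It was lowest in mouse 3 of each replicated genotype, both of which were among the 3 mice with the highest Bcl2, and the groups overlapped. The log2 fold change of Eµ-PRMT5/TCL1 over Eµ-PRMT5 mice was -0.86 (95% interval -2.25 to 0.53), and it was -1.73 without Eµ-PRMT5/TCL1 mouse 1 and -0.41 without mouse 3 of that genotype. Against the Eµ-TCL1 mouse it was 1.06 in Eµ-PRMT5 mice and 0.20 in Eµ-PRMT5/TCL1 mice, and the latter turned to -0.02 with library size only and to -0.67 without Eµ-PRMT5/TCL1 mouse 1.

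Bbc3 encodes PUMA, a target of p53 that binds all the anti-apoptotic members. On chromosome 7, it extends from 16308393 to 16318205 on the plus strand. Bbc3 measured 94.6, 45.8, 6.38 and 7.26 CPM in Eµ-PRMT5 mice 1 to 4, 31.3, 31.03 and 17.8 CPM in Eµ-PRMT5/TCL1 mice 1 to 3, and 55.2 CPM in the Eµ-TCL1 mouse. The Eµ-PRMT5 mice lay on both sides of all other mice, with mice 3 and 4 below and mouse 1 above them, a 14.8-fold range, whereas the Eµ-PRMT5/TCL1 mice spanned 1.76-fold. The log2 fold change between these groups was -0.52 (95% interval -2.22 to 1.17), and 0.45 without Eµ-PRMT5 mouse 1.

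Pmaip1 encodes NOXA, which binds mainly MCL1 and A1. It lies on chromosome 18 from 66458533 to 66465565 on the plus strand. Pmaip1 measured 83.4, 54.3, 6.61 and 84.6 CPM in Eµ-PRMT5 mice 1 to 4, 74.8, 44.5 and 17.1 CPM in Eµ-PRMT5/TCL1 mice 1 to 3, and 17.8 CPM in the Eµ-TCL1 mouse. The 3 lowest mice were Eµ-PRMT5 mouse 3, Eµ-PRMT5/TCL1 mouse 3 and the Eµ-TCL1 mouse, which were also the 3 mice with the lowest sum of neutrophil markers. Within their genotypes these 2 mice numbered 3 were lowest for 8 and for 11 of the 12 neutrophil markers, and the part of such cells in the level of Pmaip1 or Bcl2l11 was not tested. Pmaip1 had a log2 fold change of -0.34 (95% interval -1.84 to 1.17) of Eµ-PRMT5/TCL1 over Eµ-PRMT5 mice, and it was 0.06 without Eµ-PRMT5/TCL1 mouse 3. It was 1.68 (95% interval -0.82 to 4.18) of Eµ-PRMT5 mice over the Eµ-TCL1 mouse, and 2.05 without Eµ-PRMT5 mouse 3, where its unadjusted p was under 0.05 and its adjusted p 0.264 in edgeR's test.

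Bid encodes the protein that links death receptors to mitochondria after cleavage by caspase 8. The gene is on chromosome 6 from 120891930 to 120916853 on the minus strand, and 628 of its exon bases are shared with Bcl2l13 on the other strand. Bid measured 197, 209, 230 and 246 CPM in Eµ-PRMT5 mice 1 to 4, 175, 152 and 189 CPM in Eµ-PRMT5/TCL1 mice 1 to 3, and 198 CPM in the Eµ-TCL1 mouse. All Eµ-PRMT5/TCL1 mice were below all Eµ-PRMT5 mice, the only member of the 10 for which these groups did not overlap, against 1.59% of tested genes without overlap in this direction, and the groups did overlap with library size only, with upper-quartile factors and with missing values counted as 0. In the other direction, 0 of the 10 members and 1.35% of tested genes had no overlap. The means were 220 ± 21.8 CPM (SD, n = 4) and 172 ± 18.5 CPM (SD, n = 3), a log2 fold change of -0.36 (95% interval -1.01 to 0.30).

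Bad encodes a BH3-only protein that is inactivated by survival kinases. It lies on chromosome 19 from 6941861 to 6951899 on the plus strand, where 524 of its exon bases are shared with Gpr137 on the other strand. Bad spanned 23.7 to 45.1 CPM among Eµ-PRMT5 mice, 30.7 to 42.3 CPM among Eµ-PRMT5/TCL1 mice, and the Eµ-TCL1 mouse had 35.7 CPM. Both replicated groups overlapped, and the log2 fold change was 0.21 (95% interval -0.59 to 1.01).

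Genes such as Bad, Bid, Bak1 and Bcl2, whose exons overlap a gene on the other strand, carry some uncertainty, since the use of strand in counting was not given in the sources used here.

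The spread between mice was compared over genes as the SD of log2 CPM within genotype, pooled over the 4 Eµ-PRMT5 and 3 Eµ-PRMT5/TCL1 mice. Its median over all tested genes was 0.60. Bbc3 (1.502), Pmaip1 (1.496) and Bcl2l11 (1.25) exceeded 97.1%, 97.0% and 93.4% of tested genes. Bcl2 had an SD of 0.93, at percentile 81.8, and Bcl2l1 of 0.74, at percentile 66.0. Bak1, whose counts were few, had an SD of 0.66. Mcl1 (0.51), Bax (0.46) and Bad (0.34) were below the median. Bid had an SD of 0.15, lower than all but 0.5% of tested genes. This percentile was taken with TMM factors only. With library size only, Bid ran from 178 to 265 CPM in Eµ-PRMT5 mice, against 197 to 246 CPM with TMM factors. The BH3-only class thus held both the most and the least variable members. These SDs describe 7 mice and were not tested.

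**Figure D3:**
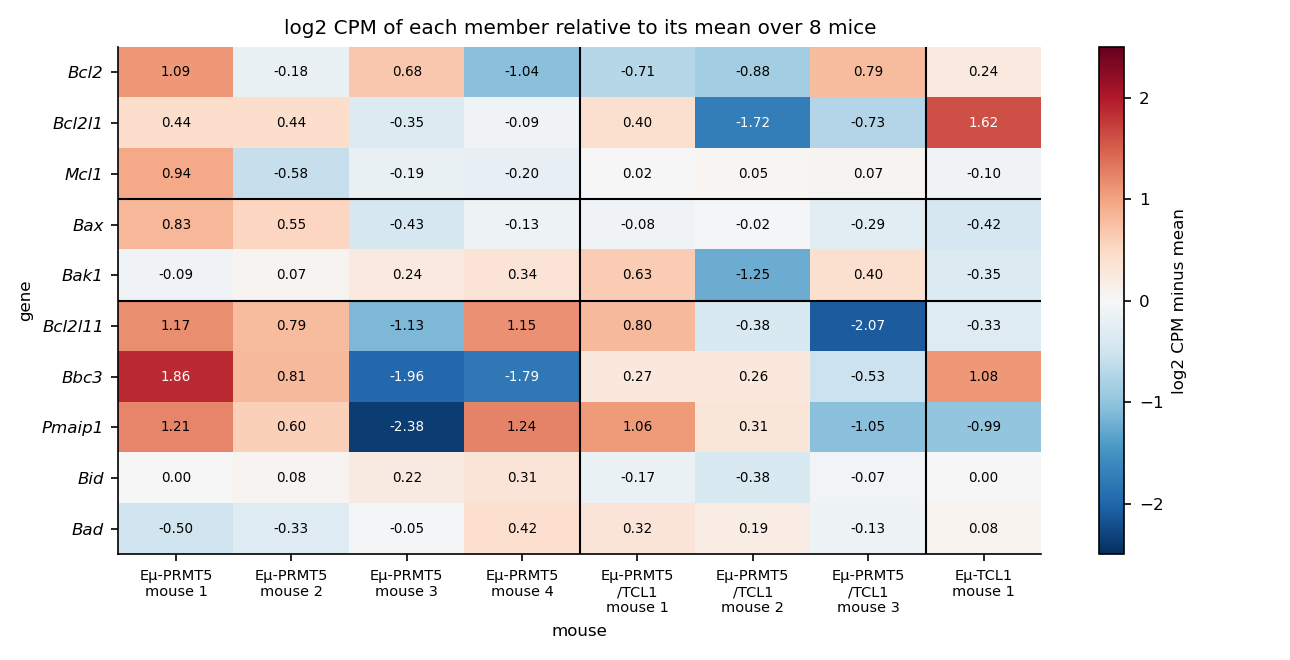
The log2 CPM of each member in each mouse minus the mean of that member over the 8 mice, with lines between genotypes and between roles. Bcl2l11, Bbc3 and Pmaip1 are all low in Eµ-PRMT5 mouse 3 (-1.13, -1.96 and -2.38) and all high in Eµ-PRMT5 mouse 1 (1.17, 1.86 and 1.21), whereas Bid stays within -0.38 and 0.31.

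Levels of different genes were compared as CPM per kilobase of the union of annotated exons. By the mean over 8 mice the order was Bax (104), Mcl1 (77.8), Bid (56.2), Pmaip1 (17.5), Bbc3 (17.0), Bad (13.5), Bcl2 (13.4), Bcl2l11 (10.5), Bcl2l1 (8.11) and Bak1 (1.26 CPM per kilobase). Bax exceeded Mcl1 in 8 of 8 mice, Mcl1 exceeded Bid in 6, and Bid exceeded Pmaip1 in 8. Pmaip1, Bbc3, Bad, Bcl2, Bcl2l11 and Bcl2l1 lay close to one another, each above the next of them in 3 to 5 of 8 mice, so their order was not separated by the spread between mice. Bak1 was last in 8 of 8 mice. Coding sequence makes up a small part of the exon length of Bcl2 and Bcl2l11. Per kilobase of coding sequence, Bid, Mcl1 and Bax came first, Bcl2 was at rank 4 and Bad at rank 9. Bak1 was last by either length.

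When Eµ-PRMT5/TCL1 was compared with Eµ-PRMT5, the only comparison in which both genotypes were replicated, 0 of the 10 members were called at an adjusted p under 0.05 with a fold change over 4, the thresholds of the study, and 0% of all tested genes were called in edgeR's quasi-likelihood test. At an unadjusted p under 0.05, 0 members were higher and 0 lower, against 0.957% and 1.21% of all tested genes. DESeq2 called 0 members and 4 genes in all (3 higher, 1 lower). The adjusted p of every member was 1.00 in edgeR's test. The median log2 fold change of the members was -0.38, against -0.09 over all tested genes, and 1 of 10 was positive, against 5350 of the 13173 tested genes, although Mcl1 (0.02) and Bak1 (0.05) turned positive with upper-quartile factors and Bak1 (0.01) with library size only. The 95% intervals of the members reached 1.12 to either side of the estimate in the median, and were narrowest for Bid (-1.01 to 0.30) and widest for Bbc3 (-2.22 to 1.17). The background at an unadjusted p under 0.05 moved with single mice, from 126 genes higher and 160 lower to 424 and 347 without Eµ-PRMT5 mouse 3, 392 and 368 without mouse 4, 77 and 129 without Eµ-PRMT5/TCL1 mouse 1, and 83 and 66 without mouse 2 of that genotype.

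For Eµ-PRMT5 mice against the Eµ-TCL1 mouse, the test asked whether this single mouse, assumed to vary like the replicated groups, lay outside their spread. Of the 10 members 0 were called, as were 0% of tested genes with edgeR, while DESeq2 called 18 genes (4 higher, 14 lower) and 0 members. The study compared these genotypes with more Eµ-TCL1 mice than the matrix used here holds. It reported differentially expressed genes in both directions, so the counts here are not its result. At an unadjusted p under 0.05, 0 members were higher in Eµ-PRMT5 mice against 1.96% of tested genes, and 1 was lower, Bcl2l1, against 4.82%. The call of Bcl2l1 at this level was lost with DESeq2, with missing values counted as 0, and without Eµ-PRMT5 mouse 1, 3 or 4 or Eµ-PRMT5/TCL1 mouse 3, while its log2 fold change stayed between -1.19 and -1.48. Without Eµ-PRMT5 mouse 3, the 1 member at this level was Pmaip1, which was higher, and 510 genes were higher and 1609 lower, against 258 and 635 with all mice. Without Eµ-PRMT5 mouse 1 the genes were 594 and 482, without mouse 2 of that genotype 204 and 401, and without Eµ-PRMT5/TCL1 mouse 2 155 and 474. DESeq2 had 646 higher and 480 lower, so the larger share of lower genes depended on the method and on Eµ-PRMT5 mouse 1. This balance also turned with missing values counted as 0. The median log2 fold change was 0.18 over the members and 0.04 over all tested genes. With library size only, the median of all genes moved to -0.21, and Bcl2 (-0.11), Mcl1 (-0.06) and Bid (-0.09) turned negative.

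For Eµ-PRMT5/TCL1 mice against the Eµ-TCL1 mouse, 0 of 10 members and 0% of tested genes were called with edgeR, and DESeq2 called 16 genes (9 higher, 7 lower) and 0 members. At an unadjusted p under 0.05, 0 members were higher, against 1.75% of tested genes, and 1 was lower, again Bcl2l1, against 4.33%. Bcl2l1 passed this level under all the alternatives that were run for this comparison. The larger share of lower genes again depended on the method, with 231 higher and 571 lower here but 476 and 454 with DESeq2. Leaving out each mouse gave more genes lower than higher, with 416 and 537 without Eµ-PRMT5 mouse 1, 258 and 959 without mouse 3, 475 and 715 without mouse 4, and 143 and 377, 150 and 254, and 204 and 341 without Eµ-PRMT5/TCL1 mice 1, 2 and 3. Counting missing values as 0, however, gave more genes higher than lower. The median log2 fold change was 0.10 over the members and -0.07 over all tested genes. The latter moved to -0.30 with library size only, where Mcl1 (-0.09), Bcl2l11 (-0.02) and Bad (-0.17) turned negative. The comparisons share mice and are given side by side without any statistic between them.

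**Figure D4:**
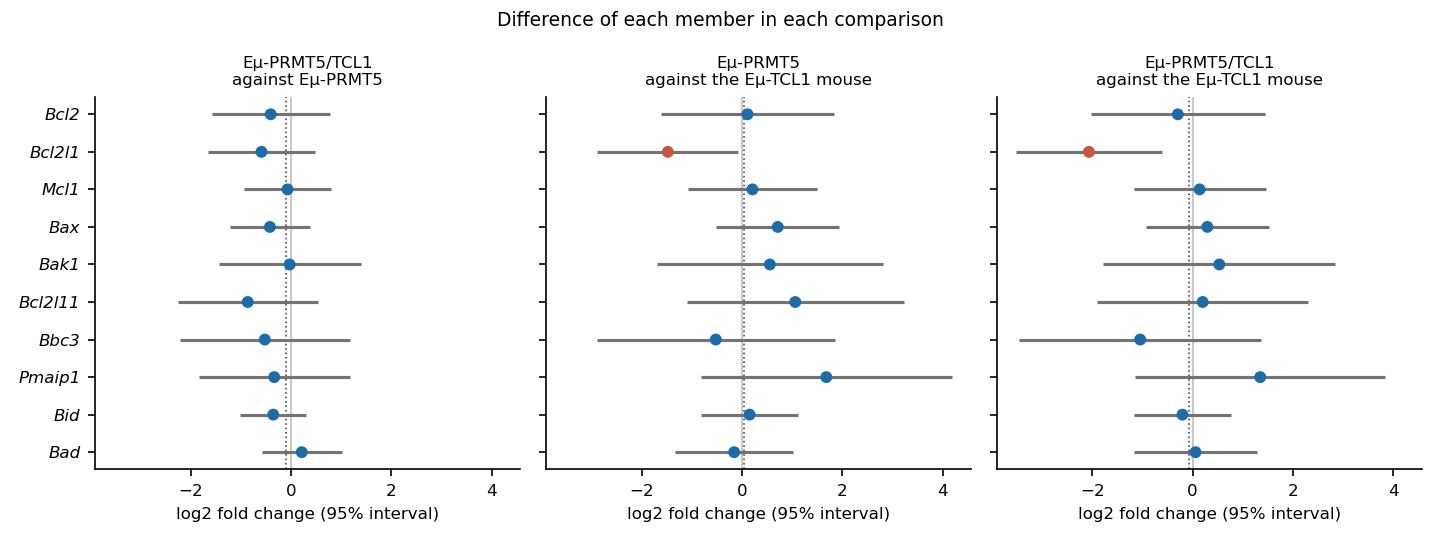
The log2 fold change of each member (points) with its 95% interval (lines) in the 3 comparisons, with a dotted line at the median of all tested genes. Points in red have an unadjusted p under 0.05 and are those of Bcl2l1 at -1.47 and -2.07, and no member passed after adjustment over all genes.

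Ratios of member counts within a library do not depend on the scaling between libraries. The log2 ratio of Bax to Bcl2, an effector to an anti-apoptotic gene, was 0.28, 1.26, -0.58 and 1.44 for Eµ-PRMT5 mice 1 to 4, 1.17, 1.39 and -0.55 for Eµ-PRMT5/TCL1 mice 1 to 3, while the Eµ-TCL1 mouse had -0.12. It was below 0 in mouse 3 of each replicated genotype and in the Eµ-TCL1 mouse, and the replicated groups overlapped. These were the 3 mice with the lowest neutrophil marker sums (434, 671 and 622 CPM), and the 2 mice numbered 3 had the highest B-cell marker sums of their genotypes (5284 and 6821 CPM). The log2 ratio of Bcl2l11 to Bcl2 was -0.62, 0.26, -2.53 and 1.49 for Eµ-PRMT5 mice 1 to 4, 0.81, -0.20 and -3.60 for Eµ-PRMT5/TCL1 mice 1 to 3, while the Eµ-TCL1 mouse had -1.27. The same 3 mice were the lowest. The mean log2 ratio was -0.35 ± 1.69 (SD, n = 4) in Eµ-PRMT5 and -0.998 ± 2.31 (SD, n = 3) in Eµ-PRMT5/TCL1 mice, so the means differed by less than the spread between mice.

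The log2 ratio of Mcl1 to Bcl2 was above 0 in all 8 mice, from 0.37 in Eµ-PRMT5 mouse 3 to 2.17 in Eµ-PRMT5/TCL1 mouse 2. That of Bcl2l1 to Bcl2 was below 0 in all 8 mice and was highest in the Eµ-TCL1 mouse (-0.43), next to Eµ-PRMT5/TCL1 mouse 1 (-0.70) and Eµ-PRMT5 mouse 4 (-0.86). That of Bak1 to Mcl1 lay between -8.04 and -5.81. The ratios are of counts and are not corrected for length, so only the same ratio can be compared between mice.

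**Figure D5:**
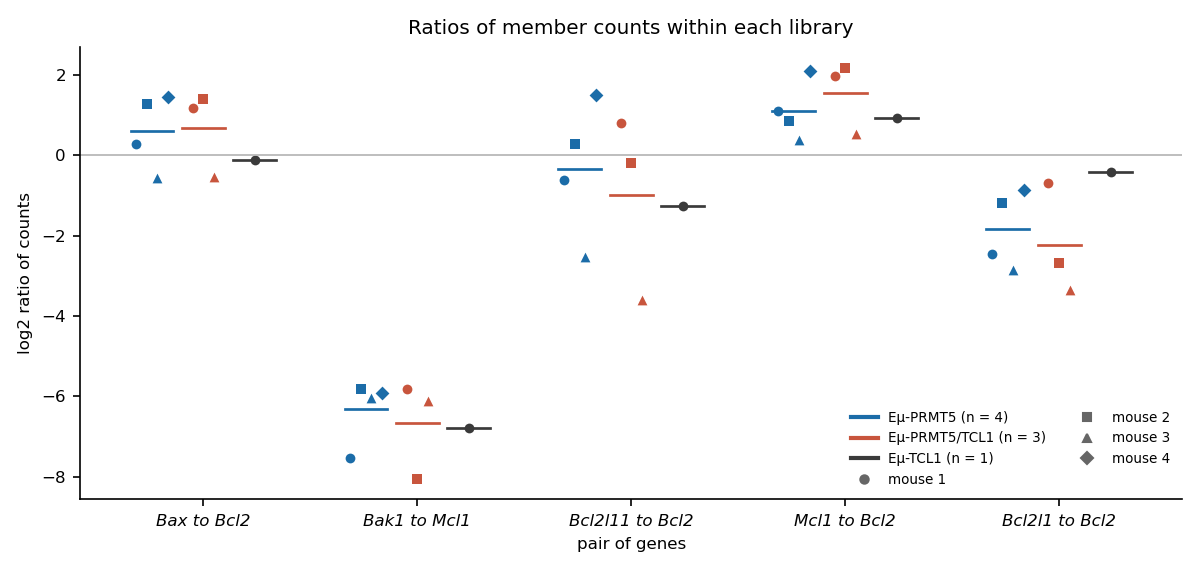
The log2 ratio of counts of 2 members in the same library for 5 pairs, with genotype as colour, mouse number as symbol and the group mean as a bar. The ratio of Bcl2l11 to Bcl2 spans -3.60 to 1.49 over the 7 mice of the replicated genotypes, and the replicated groups overlap for every pair.

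Of 16 further genes of the family, 11 were tested, and 0 were called in any of the 3 comparisons with edgeR. Bmf encodes another BH3-only protein. It measured 12.2, 10.29, 3.65 and 6.80 CPM in Eµ-PRMT5 mice 1 to 4, 10.2, 8.15 and 1.54 CPM in Eµ-PRMT5/TCL1 mice 1 to 3, and 38.7 CPM in the Eµ-TCL1 mouse, whose Poisson interval was 32.6 to 45.5 CPM. The Eµ-TCL1 mouse was above all 7 others, as for Bcl2l1 and for 21.3% of tested genes. The lowest mice were again mouse 3 of each replicated genotype. For Bmf, the log2 fold change against the Eµ-TCL1 mouse was -2.23 in Eµ-PRMT5 mice (standard error 0.84, adjusted p = 0.709, edgeR) and -2.54 in Eµ-PRMT5/TCL1 mice (standard error 0.89, adjusted p = 0.778, edgeR).

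The A1 genes Bcl2a1a, Bcl2a1b and Bcl2a1d, near-identical copies between which reads cannot be assigned with certainty, were each highest in Eµ-PRMT5 mouse 2, at 9.82, 25.96 and 95.9 CPM. In the other mice they reached at most 4.46, 13.2 and 38.4 CPM. Bcl2l2, which encodes BCL-W, ranged from 2.44 to 6.15 CPM, and Bik, a BH3-only gene, from 0 in Eµ-PRMT5 mouse 1, where 3 counts would give 0.609 CPM, to 5.68 CPM in the Eµ-TCL1 mouse. Bcl2l15 measured 3.42 to 9.02 CPM in Eµ-PRMT5 and 1.72 to 3.12 CPM in Eµ-PRMT5/TCL1 mice without overlap (log2 fold change -1.22, standard error 0.61, adjusted p = 1.00, edgeR), and 1.59% of tested genes had no overlap in this direction. Bcl2l12 ranged from 7.60 to 18.5 CPM and Bcl2l13 from 41.8 to 81.3 CPM. Of the mitophagy receptors, Bnip3 ranged from 7.31 to 34.3 CPM and Bnip3l from 105 to 302 CPM. Bnip3 was highest in the Eµ-TCL1 mouse, as were 21.3% of tested genes. At an unadjusted p under 0.05, Bmf and Bnip3 were lower in Eµ-PRMT5/TCL1 mice than there (2 of 11 genes, against 4.33% of tested genes), and Bmf was lower in Eµ-PRMT5 mice (1 of 11, against 4.82%). The median log2 fold change of these 11 genes was -0.32 in Eµ-PRMT5/TCL1 against Eµ-PRMT5 mice, -0.02 in Eµ-PRMT5 and -0.46 in Eµ-PRMT5/TCL1 mice against the Eµ-TCL1 mouse.

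Downstream of the family, all 19 genes of the mitochondrial pathway were tested and 0 were called in the 3 comparisons with edgeR. At an unadjusted p under 0.05 the only one, against 0.957% of tested genes higher in that comparison, was Dffa, an inhibitor and chaperone of the nuclease that cuts DNA in apoptosis, which measured 34.1, 45.0, 41.0 and 45.5 CPM in Eµ-PRMT5 mice 1 to 4 and 57.4, 70.8 and 86.1 CPM in Eµ-PRMT5/TCL1 mice 1 to 3 (log2 fold change 0.78, adjusted p = 1.00, edgeR). These groups did not overlap, as for 1.35% of tested genes in this direction, and the Eµ-TCL1 mouse lay between them at 53.3 CPM. Cycs, which encodes cytochrome c, ranged from 113 to 381 CPM in Eµ-PRMT5 and from 166 to 281 CPM in Eµ-PRMT5/TCL1 mice and was lowest in the Eµ-TCL1 mouse, at 83.0 CPM. Vdac2, a mitochondrial channel that binds BAK, had the highest mean per kilobase of the list (61.0 CPM per kilobase). It was also lowest in the Eµ-TCL1 mouse, at 155 CPM against 171 to 521 CPM in the others. That mouse was below all others for 14.2% of tested genes. Xiap, a caspase inhibitor, had the lowest mean per kilobase (2.97), with 66.8 CPM in Eµ-PRMT5 mouse 1 and 16.4 to 29.5 CPM in the other mice.

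Of the 8 death receptor genes 7 were tested, with 0 called in the 3 comparisons and 0 at an unadjusted p under 0.05 in edgeR's test. Casp8, the caspase that cleaves BID, was highest in the Eµ-TCL1 mouse, at 171 CPM, against 88.2 to 131 CPM in Eµ-PRMT5 and 112 to 145 CPM in Eµ-PRMT5/TCL1 mice. Its mean of 41.7 CPM per kilobase was the highest of the list, and that of the adaptor Fadd, 2.80 CPM per kilobase, was the lowest. Tradd ranged from 50.2 to 117 CPM, and Ripk1 from 26.5 CPM in the Eµ-TCL1 mouse to 86.5 CPM in Eµ-PRMT5/TCL1 mouse 2. The Eµ-TCL1 mouse, highest for Casp8 and lowest for Ripk1, was above all others for 21.3% of tested genes and below them for 14.2%.

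Of 9 regulators of members, all 9 were tested, and 0 were called or had an unadjusted p under 0.05 in the 3 comparisons with edgeR. Foxo1, a factor that activates Bcl2l11 in lymphocytes, measured 257, 104, 36.5 and 25.4 CPM in Eµ-PRMT5 mice 1 to 4, 54.9, 22.7 and 54.9 CPM in Eµ-PRMT5/TCL1 mice 1 to 3, and 171 CPM in the Eµ-TCL1 mouse. It was high in Eµ-PRMT5 mouse 1, which was also highest for Bcl2l11 (148 CPM), and in the Eµ-TCL1 mouse (52.5 CPM of Bcl2l11). Eµ-PRMT5 mouse 3 was low for both genes (29.9 CPM of Bcl2l11). Eµ-PRMT5 mouse 4, with 1 of the highest levels of Bcl2l11 (146 CPM), was among the lowest for Foxo1. A relation between these genes was not tested. Foxo3 ranged from 15.4 to 41.6 CPM and had the lowest mean per kilobase of the list, 3.49. Trp53, which encodes p53, was lowest in the Eµ-TCL1 mouse, at 83.8 CPM, as were 14.2% of tested genes, and ranged from 102 to 159 CPM in the other mice. Atf4, a factor of the integrated stress response, had the highest mean per kilobase (104) and ranged from 119 to 467 CPM.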

How the data were processed

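Spleen B cells of 8 mice were profiled as bulk RNA. Counts by gene symbol came from the table that the authors deposited, neither normalized nor pooled. Their processing notes name GRCm38, Subread and featureCounts, and their methods describe low-input preamplification, the CLEAR workflow and DESeq2 1.20.0, while the sample labels describe a stranded kit and greater depth. For a stranded-kit protocol tied to another experiment, the methods name STAR, Subread and an Ensembl annotation, and whether these apply here is unclear. Use of strand and the meaning of missing values were not given in the sources used here. Missing values were not read as 0 in the tests, for which 14072 symbols with a value in all 8 libraries were kept, while a marker without a value adds nothing to a marker sum.

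Genotypes were tested with edgeR 4.0.16 under R 4.3.3 (TMM factors, filterByExpr by group, 1 quasi-likelihood fit over 8 libraries, Benjamini-Hochberg adjustment over 13173 genes). The biological coefficient of variation was 0.483. A call required a fold over 4 with adjusted p below 0.05. DESeq2 1.42.0 was an alternative. Log2 CPM used a prior count of 2. The code was tested on simulated data. Levels between genes are per kilobase of exon union, and positions are from GENCODE vM21 (GRCm38). The mice are separate animals by their labels.

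All members were named, and of each pathway list the gene of smallest unadjusted p in each comparison and those of highest and lowest mean per kilobase, and every tested gene of the wider family. The members and lists were chosen with earlier results of these data known. Alternatives were DESeq2, no filter, a minimum of 10 counts per library, library size only, upper-quartile factors, only the groups compared, no fold threshold, missing values as 0, a prior count of 0.5, each replicate left out, the replicate number as a block, and coding length. The fit of the same 6 mice without the block was added after seeing the data. The 26 rows that hold a date as symbol were left as written. Counting error is largest for Bak1, the member with the fewest counts, and without molecular identifiers intervals from counts cover counting error only. Of the cell markers fixed at the start, 2 are not reported here and are left out of the sums.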

Additional observations from a re-analysis of the deposited data

Results flagged for a closer look

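Among the 4 Eµ-PRMT5 mice, 35 sets of values were examined for a mouse far from the others. Of these 7 were found, where a rate of 1 in 20 sets would give 1.8. Levels in CPM were compared without taking logs and some sets share values, so 7 against 1.8 cannot be read as an excess. Mouse 1 stood apart for Mcl1 (490 CPM), for the log2 ratio of Bak1 to Mcl1 (-7.54), which holds the same Mcl1 value, and for the number of symbols with a value (16379). Mouse 2 stood apart for Bcl2a1a (9.82 CPM) and Bcl2a1d (95.9 CPM), near-identical copies. Mouse 3 stood apart for the summed markers of NK and cytotoxic cells (389 CPM, led by Nkg7 at 279 CPM). Mouse 4 stood apart for the summed proliferation markers (3632 CPM, led by Mki67 at 806 CPM). What sets these mice apart was not tested.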

How the results depend on the processing

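No member was called in any comparison under any setting. DESeq2 called 3 genes higher and 1 lower in Eµ-PRMT5/TCL1 against Eµ-PRMT5, 4 and 14 in Eµ-PRMT5 against Eµ-TCL1, and 9 and 7 in Eµ-PRMT5/TCL1 against Eµ-TCL1, where edgeR called 0.

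For Eµ-PRMT5/TCL1 against Eµ-PRMT5, 1 member passed an unadjusted p under 0.05 with the replicate number as a block (Bcl2l11), and leaving out each mouse gave 0 to 2 (Bcl2l1 and Bcl2l11 without Eµ-PRMT5/TCL1 mouse 1, where 77 genes were higher and 129 lower, against 424 and 347 without Eµ-PRMT5 mouse 3). With the block, 495 genes were higher and 331 lower at this level, and the same 6 mice without it, a fit chosen after seeing the data, gave 374 and 368. By correlation of deviations from the group mean, Eµ-PRMT5 mice 2 and 3 were most alike to the Eµ-PRMT5/TCL1 mouse of their number (0.106 and 0.162). Eµ-PRMT5 mouse 1 was nearer to Eµ-PRMT5/TCL1 mouse 2 (0.077) than to mouse 1 (0.021). With so few mice this does not settle whether the numbers are pairs, and they were not read as such. For Eµ-PRMT5 against Eµ-TCL1 the count of members was 0 with DESeq2, 0 with missing values as 0, and 0 to 1 on leaving out each mouse, where the 1 was Bcl2l1 except without Eµ-PRMT5 mouse 3, when it was Pmaip1, higher. Genes higher and lower at this level were 487 and 412 with missing values as 0, 128 and 794 with library size only, and 594 and 482 without Eµ-PRMT5 mouse 1. For Eµ-PRMT5/TCL1 against Eµ-TCL1 the count of members stayed at 1, and the genes were 403 and 313 with missing values as 0 and 1130 and 1229 with only the groups compared.

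Bid was the 1 member lower without overlap between the replicated groups, and there were 0 with library size only, 0 with upper-quartile factors and 0 with missing values as 0, while leaving out each mouse gave 1 to 2 members lower and 0 to 1 higher without overlap, against 2.45% to 5.94% and 2.41% to 7.28% of tested genes. The Eµ-TCL1 mouse was above all others for 1 to 2 members on leaving out each mouse (22% to 27% of tested genes) and below all others for 0 to 1 (14.9% to 17.8%). It was below for 1 member, Bax, with upper-quartile factors (10.8% of tested genes) and for 1 with missing values as 0 (14.4%).

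Signs turned for results of at most 0.52 in size, 29 of 467 log2 fold changes. In Eµ-PRMT5/TCL1 against Eµ-PRMT5, Mcl1 was 0.016 with upper-quartile factors, Bak1 was 0.046 with those, 0.007 with library size only and 0.052 in the 6 mice without block, and Pmaip1 was 0.246 with the block. On leaving out each mouse Mcl1 ran from -0.246 to 0.374, Bak1 from -0.401 to 0.398, Bbc3 from -0.876 to 0.447 and Pmaip1 from -0.897 to 0.056. In Eµ-PRMT5 against Eµ-TCL1, Bcl2 was -0.030 and Bid -0.002 with upper-quartile factors, library size only gave -0.112 for Bcl2, -0.063 for Mcl1 and -0.093 for Bid, and Bad was 0.132 with missing values as 0. On leaving out each mouse Bcl2 ran from -0.154 to 0.383, Mcl1 from -0.110 to 0.385 and Bad from -0.366 to 0.079. In Eµ-PRMT5/TCL1 against Eµ-TCL1, missing values as 0 gave 0.010 for Bcl2 and 0.090 for Bid, library size only gave -0.086 for Mcl1, -0.018 for Bcl2l11 and -0.166 for Bad, and upper-quartile factors gave -0.036 for Bad. On leaving out each mouse Bcl2l11 ran from -0.668 to 0.657 and Bad from -0.045 to 0.182.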
